A study of Mus musculus with 4 samples.

Results

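Foxp3, Ikzf2, Gata3, Tbx21, Il2ra, Icos, Il10 and Il2, genes that set or mark the lineages of T cells, were followed through the T cells and innate lymphocytes of mouse skin. These 8 genes were taken by symbol from the 32285 genes of the count tables, and all 8 were detected. Neck and ear skin came from female C57BL/6J mice of 6 to 8 weeks, and each of the 4 droplet libraries held cells pooled from 3 mice. In OXA_d10 and OXA_d16, skin had been sensitised with 3% oxazolone (a hapten that provokes contact hypersensitivity), challenged with 1.0% oxazolone every other day from 7 days later, and harvested at day 10 or day 16. In MC903_d9, 1 nmol of MC903 (calcipotriol, a vitamin D analogue that provokes skin inflammation resembling atopic dermatitis) had been applied daily in ethanol for 9 days. Untreated skin received neither agent, and no library of vehicle-treated skin was analysed here. In the 4 libraries alike, the tissue was digested with collagenase Ia, chosen to free more fibroblasts, and dead cells were removed, so shares of cells describe what this digestion released.

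Foxp3 is the transcription factor that defines regulatory T cells, which restrain inflammation and are abundant in skin, and Ikzf2 (Helios) is an Ikaros-family factor carried by many of them. Il2ra encodes CD25, the chain that gives the IL-2 receptor its high affinity, and regulatory T cells use it to take up IL-2 that other activated lymphocytes make. Gata3 directs type 2 lymphocytes, both T helper 2 cells and type 2 innate lymphoid cells (ILC2), and Tbx21 (T-bet) directs type 1 lymphocytes, among them interferon-gamma-making T cells, NK cells and type 1 innate lymphoid cells (ILC1). Icos is a costimulatory receptor of the CD28 family, and Il10 encodes an anti-inflammatory cytokine made by regulatory T cells and myeloid cells. Mouse epidermis also holds a resident layer of gamma delta T cells (dendritic epidermal T cells), and the dermis holds gamma delta T cells that make IL-17.

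The genes lie on 5 chromosomes (GRCm38, GENCODE vM21). Foxp3 is at chrX:7573644-7595245 on the plus strand, Ikzf2 at chr1:69531214-69687245 on the minus strand, Gata3 at chr2:9857078-9890034 on the minus strand and Tbx21 at chr11:97098071-97115331 on the minus strand. Il2ra is at chr2:11642807-11693193 on the plus strand, Icos at chr1:60977927-61000320 on the plus strand, Il10 at chr1:131019845-131024974 on the plus strand and Il2 at chr3:37120523-37125959 on the minus strand. Adad1 overlaps Il2 by 1408 bases on the opposite strand and had 126 UMIs (unique molecular identifiers, each counting 1 captured RNA molecule) in all libraries. Flicr overlaps Foxp3 on its own strand and had 79 UMIs.

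RefSeq promoter windows (GRCm38.p6, 250 bases before to 50 bases after a start site) were held for 5 of the 8 genes. The windows of Foxp3, Il2ra and Il2 are shown because they join the cytokine, its receptor and the factor of the cell that consumes it, and because Treg-like cells, rich in Foxp3 and Il2ra, had at most 1 Il2 UMI in a library. Each sequence is 5′ to 3′ on the gene's strand, and capitals mark matches to a motif searched on both strands.
Foxp3, chrX:7579426-7579725, plus strand: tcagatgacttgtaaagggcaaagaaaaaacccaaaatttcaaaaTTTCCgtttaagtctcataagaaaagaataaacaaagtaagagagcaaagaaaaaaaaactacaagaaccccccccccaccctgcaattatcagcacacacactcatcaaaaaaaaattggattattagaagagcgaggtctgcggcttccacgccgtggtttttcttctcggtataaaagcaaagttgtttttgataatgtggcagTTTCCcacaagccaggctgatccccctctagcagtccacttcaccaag
Foxp3, chrX:7580233-7580532, plus strand: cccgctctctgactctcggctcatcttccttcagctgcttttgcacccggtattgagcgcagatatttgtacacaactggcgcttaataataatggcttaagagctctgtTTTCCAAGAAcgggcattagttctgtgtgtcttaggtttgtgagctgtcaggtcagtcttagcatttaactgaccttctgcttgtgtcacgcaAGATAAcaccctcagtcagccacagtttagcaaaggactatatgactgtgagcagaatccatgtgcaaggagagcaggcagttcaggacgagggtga
Il2ra, chr2:11642542-11642841, plus strand: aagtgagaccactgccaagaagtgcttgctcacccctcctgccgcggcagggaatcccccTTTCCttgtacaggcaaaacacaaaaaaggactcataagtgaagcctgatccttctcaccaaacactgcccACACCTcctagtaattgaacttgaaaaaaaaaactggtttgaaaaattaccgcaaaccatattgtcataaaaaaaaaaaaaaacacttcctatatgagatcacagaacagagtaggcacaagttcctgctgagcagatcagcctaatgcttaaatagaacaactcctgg
Il2, chr3:37125905-37126204, minus strand: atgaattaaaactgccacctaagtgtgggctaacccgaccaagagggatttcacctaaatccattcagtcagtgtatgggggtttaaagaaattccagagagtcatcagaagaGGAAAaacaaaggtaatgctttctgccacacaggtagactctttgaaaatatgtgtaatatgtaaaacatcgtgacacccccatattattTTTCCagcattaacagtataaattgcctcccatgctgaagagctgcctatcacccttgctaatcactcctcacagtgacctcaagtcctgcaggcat
The motifs were GGAAA for NFAT, TTCNNNGAA for STAT, AGATAA for GATA factors, AGGTGT for T-box factors, TGANTCA for AP-1 and GTAAACA for forkhead factors. NFAT, the calcineurin-dependent factor of T cell activation, had 2 matches in the Il2 window, 1 in the Il2ra window, 2 in the first Foxp3 window and 1 in the second. GGAAA is short, and 61.3% of the 32851 promoter windows hold it. The second Foxp3 window also held 1 STAT match, which overlaps its NFAT match, and 1 GATA match, while 8.30% and 11.2% of all windows hold those motifs. Il2ra had 1 T-box match, a motif in 13.7% of all windows. No AP-1 or forkhead match was found in any of the 4 windows shown, against 7.81% and 3.65% of all windows.

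The 4 libraries held 4185 to 8708 barcodes and 73054242 to 119717836 UMIs. After removal of barcodes with few genes or much mitochondrial RNA and of likely doublets, 26149 of 28847 barcodes remained, with a median of 8823 to 14360 UMIs a cell in each library. Any 2 libraries shared 5 to 16 barcodes. Cells were clustered without the 8 genes, and 2094 cells fell in lymphocyte clusters: 547 in OXA_d10, 387 in OXA_d16, 299 in MC903_d9 and 861 in Untreated. Names ending in "-like" follow marker lists that hold none of the 8 genes. Foxp3, Il10 and Ikzf2 were nevertheless among the 10 leading genes of the Treg-like cluster, and Il4 and Cd4 among those of cluster C5, so their levels between clusters are a description. With 1 library a group there is no replicate and no test. A level (CPM) is a gene's share of all UMIs of its class on the usual counts-per-10⁶ scale, with a 95% Poisson interval, a share of cells has an exact 95% binomial interval, and both cover counting error only, not the spread between mice or libraries.

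Cells of the alpha beta T-like class numbered 316 in OXA_d10, 187 in OXA_d16, 146 in MC903_d9 and 77 in Untreated, and its composition differed widely between libraries. Regulatory T-like (Treg-like) cells were 45.6% of it in OXA_d10, 16.6% in OXA_d16, 10.3% in MC903_d9 and 41.6% in Untreated. CD8 T-like cells were 27.2% in OXA_d10, 66.3% (59.1 to 73.0) in OXA_d16, 37.0% in MC903_d9 and 18.2% in Untreated. The third part, cluster C5, led by Il4, Lgals7, Sv2c, Cd4 and Cd40lg and given no subset name, was closest to the Treg marker set (score 1.83, against 1.31 for alpha beta T cells at large) but short of the lead of 1.5 needed for that name. Its leading genes are of all its cells pooled, 44 in OXA_d10, 20 in OXA_d16, 68 in MC903_d9 and 27 in Untreated. Il4 was not detected in Untreated alpha beta T-like cells. Cluster C5 was 13.9% of the class in OXA_d10, 10.7% in OXA_d16, 46.6% (38.3 to 55.0) in MC903_d9 and 35.1% in Untreated. A cycling cluster, C10, made up the rest, 13.3%, 6.42%, 6.16% and 5.19% in OXA_d10, OXA_d16, MC903_d9 and Untreated. The largest cluster of the class was thus CD8 T-like in OXA_d16, C5 in MC903_d9 and Treg-like in OXA_d10 and Untreated. The class leaves out unnamed cluster C8, with 87, 18, 6 and 8 cells in OXA_d10, OXA_d16, MC903_d9 and Untreated. C8 scored closest to the CD8 T marker set (3.00, against 1.90 for NK or ILC1 cells). CD8 T-like cells numbered 86, 124, 54 and 14 in those libraries. The CD8 T-like share of OXA_d10, and the size of its contrast with OXA_d16, therefore depend on leaving C8 out.

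**Figure D1:**
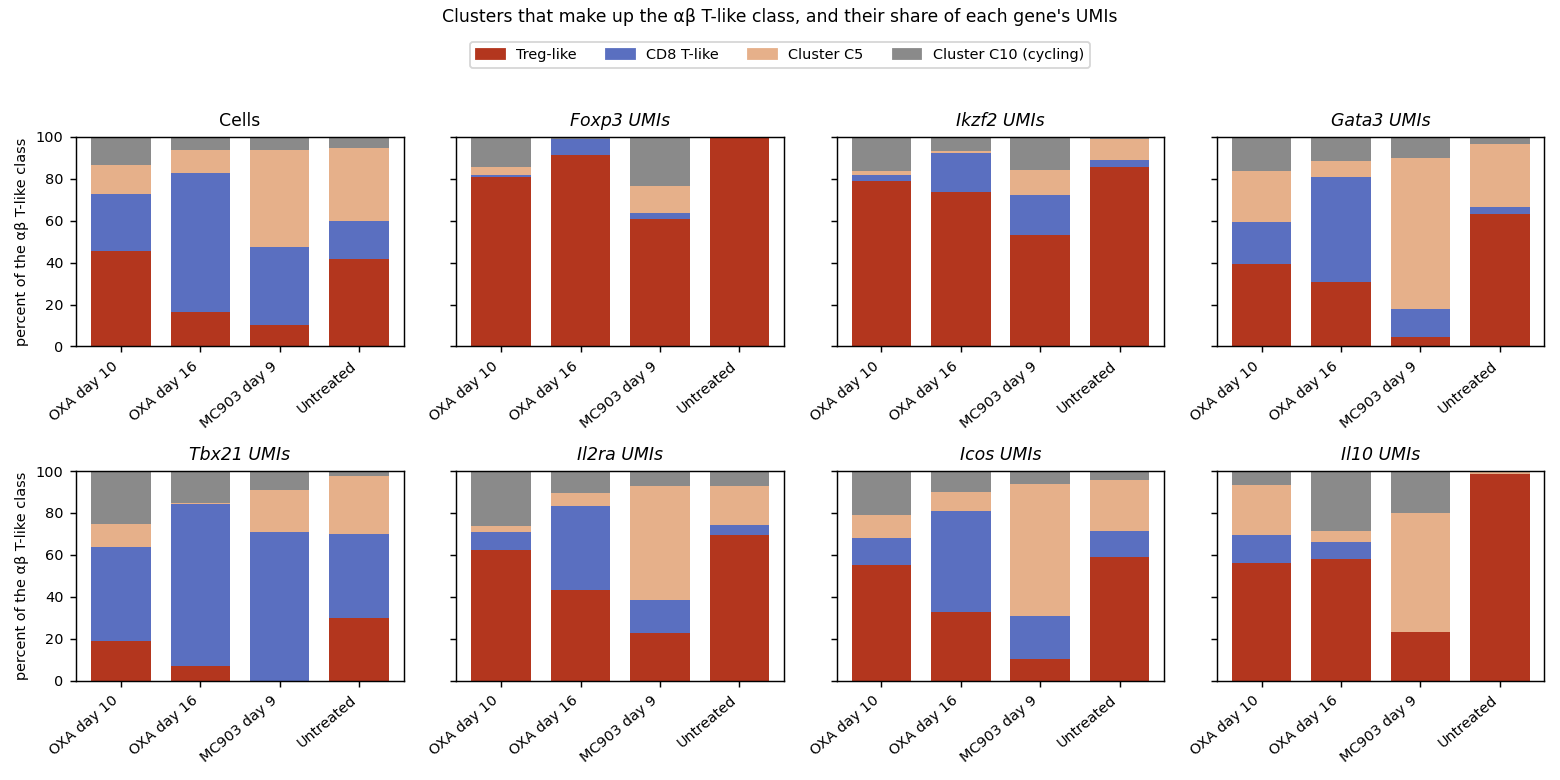
The first panel gives the percent of alpha beta T-like cells in each of 4 clusters, by library, and the other panels give the percent of the class's UMIs of each gene that those clusters held. Treg-like cells were 16.6% of the class in OXA_d16 and 10.3% in MC903_d9 but held 91.2% and 60.6% of its Foxp3 UMIs, and C5 held 72.1% of its Gata3 UMIs in MC903_d9.

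Outside this class, IL-17-type gamma delta T-like cells numbered 31 in OXA_d10, 159 in OXA_d16, 38 in MC903_d9 and 62 in Untreated. Epidermal gamma delta T-like cells numbered 19 in OXA_d10, 0 in OXA_d16, which allows a share of up to 0.0405% of its 7407 kept cells (3 cells, a one-sided limit; the exact 95% interval ends at 0.0498%), 16 in MC903_d9 and 605 in Untreated. These epidermal counts leave out cluster C11, with 2, 0, 51 and 12 cells in OXA_d10, OXA_d16, MC903_d9 and Untreated. C11 was closest to the epidermal gamma delta T marker set (score 0.99) but too near the Schwann cell set (0.71) to be named. ILC2-like cells numbered 12, 4 and 19 in OXA_d10, OXA_d16 and MC903_d9 and 69 in Untreated, and NK or ILC1-like cells 79, 11, 18 and 19 in the same order. The marker gene Cd3e, a chain of the T cell receptor complex, had UMIs in 63.9%, 84.0%, 83.6% and 63.6% of alpha beta T-like cells of OXA_d10, OXA_d16, MC903_d9 and Untreated, and in 0%, 0%, 0% and 4.35% of ILC2-like cells.

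Foxp3, Tbx21, Il2ra and Icos were largely lymphocyte genes in this skin, while Gata3, Ikzf2, Il10 and Il2 had many UMIs elsewhere. Of each library's Icos UMIs, 95.8% in OXA_d10, 95% in OXA_d16, 96.1% in MC903_d9 and 91.2% in Untreated lay in lymphocyte clusters, and Il2ra had 88.8%, 83.3%, 92.2% and 86% there. Foxp3 had 90.8%, 86.3% and 85.4% in OXA_d10, OXA_d16 and MC903_d9 and 62.9% of its 97 UMIs in Untreated, and Tbx21 had 89.4%, 81.0% and 90.7% in those treated libraries and 57.8% of its 90 UMIs in Untreated. Gata3, which keratinocytes and hair follicles also use, had 85.4% of its UMIs in keratinocyte and hair classes in OXA_d10, 49.2% in OXA_d16, 46.8% in MC903_d9 and 88.5% in Untreated. Keratinocyte-like cells carried Gata3 at 117, 95.8, 164 and 159 CPM in OXA_d10, OXA_d16, MC903_d9 and Untreated. Ikzf2 had 14.0%, 0.942%, 22.9% and 48.3% of its UMIs in keratinocyte and hair classes of those libraries. In Untreated, 10.2% of Gata3 UMIs and 33.6% of Ikzf2 UMIs lay in lymphocyte clusters.

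Il10 in OXA_d16 was mainly myeloid by count. Of 1495 Il10 UMIs in OXA_d16, 77.7% lay in myeloid classes and 17.5% in lymphocyte clusters, and neutrophil-like cells alone held 43.6% at 20.1 CPM. Myeloid classes held 42.3% in OXA_d10, 39.4% in MC903_d9 and 29.6% in Untreated, and in MC903_d9 stromal classes held another 33.3%. Of the Il2 UMIs, 7.64%, 8.43%, 19.1% and 37.7% lay in lymphocyte clusters in OXA_d10, OXA_d16, MC903_d9 and Untreated.

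**Figure D2:**
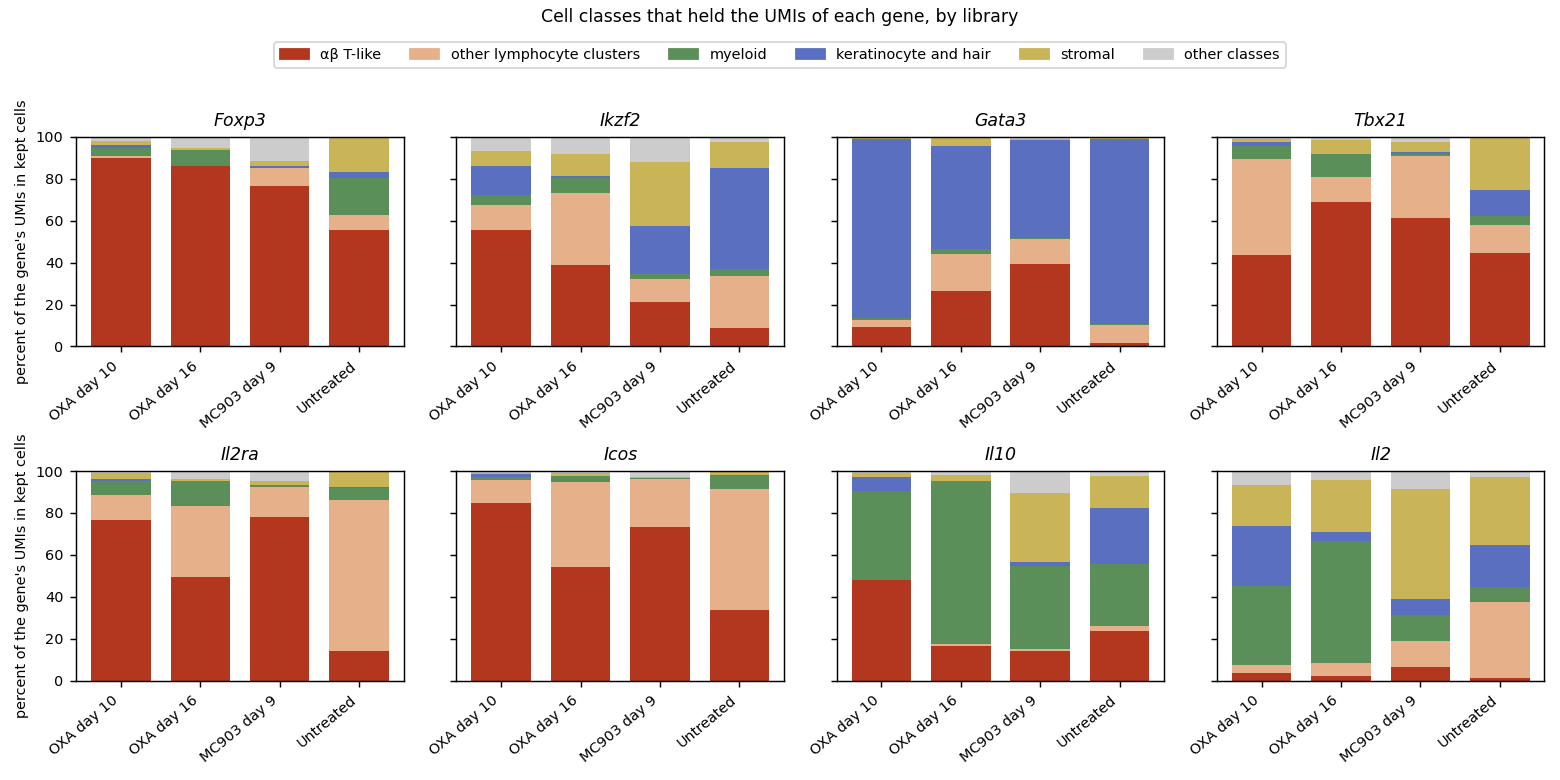
Stacked bars give, for each gene and library, the percent of the gene's UMIs in kept cells that lay in each group of cell classes. Icos stays above 91% in lymphocyte clusters in every library, Gata3 is dominated by keratinocyte and hair classes in OXA_d10 and Untreated, and Il10 in OXA_d16 is 77.7% myeloid.

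Treg-like cells carried Foxp3 at much the same level in the 4 libraries, and the libraries differed in how many such cells they held. Foxp3 was at 372 CPM (329 to 419, 267 UMIs) in OXA_d10, 312 CPM (254 to 378, 103 UMIs) in OXA_d16, 388 CPM (294 to 503, 57 UMIs) in MC903_d9 and 389 CPM (292 to 507, 54 UMIs) in Untreated. These 4 intervals overlap. Treg-like cells were 1.84% (1.56 to 2.17) of kept cells in OXA_d10, 0.419% in OXA_d16, 0.405% in MC903_d9 and 0.443% (0.303 to 0.625) in Untreated, so OXA_d10 stood above the other libraries. A Foxp3 UMI was found in 67.4% of Treg-like cells in OXA_d10, 80.6% in OXA_d16, 100% of 15 cells in MC903_d9 and 68.8% in Untreated, at median depths of 4179, 7913, 7989 and 3976 UMIs a cell. In melanocyte-like and fibroblast-like cells, which should lack the gene, the share was 0 to 3.39% at median depths of 3458 to 32842 UMIs.

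Over the whole alpha beta T-like class, Foxp3 was higher in the libraries where Treg-like cells were a larger part of the class. Treg-like cells held 80.7%, 91.2%, 60.6% and 100% of the class's Foxp3 UMIs in OXA_d10, OXA_d16, MC903_d9 and Untreated. The part of composition in the Foxp3 level was not tested. Foxp3 was at 143 CPM (128 to 159) in OXA_d10, 53.0 CPM (43.6 to 63.7) in OXA_d16, 47.1 CPM (38.0 to 57.6) in MC903_d9 and 143 CPM (108 to 187) in Untreated. OXA_d10 and Untreated do not differ beyond counting error, nor do OXA_d16 and MC903_d9, and the 2 pairs do not overlap. Thinned to 1000 UMIs a cell, with 7, 5, 3 and 2 shallower cells left out, the share of cells with a Foxp3 UMI was 17.5% in OXA_d10, 3.85% in OXA_d16, 5.59% in MC903_d9 and 17.3% in Untreated, against 36.7%, 15%, 14.4% and 28.6% before thinning. Outside Treg-like cells, cycling C10 cells of OXA_d10 had Foxp3 at 64.7 CPM, with UMIs in 28.6% of 42 cells. C5 had 14 Foxp3 UMIs in OXA_d10, 0 in OXA_d16, 12 in MC903_d9 and 0 in Untreated, cycling C10 cells had 47 in OXA_d10, 1 in OXA_d16, 22 in MC903_d9 and 0 in Untreated, and the gamma delta, ILC2-like and NK or ILC1-like classes had 0 to 2 in each library. The 22 UMIs of C10 in MC903_d9 came from 11.1% of its 9 cells, a single cell.

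Ikzf2 was highest in Treg-like cells among the named classes of each library, and was also found in the others. Treg-like cells had 4558 CPM (4403 to 4717) in OXA_d10, 2306 CPM (2145 to 2475) in OXA_d16, 2335 CPM (2094 to 2595) in MC903_d9 and 3339 CPM (3042 to 3657) in Untreated. OXA_d10 was the highest and OXA_d16 and MC903_d9 the lowest and indistinguishable from each other. IL-17-type gamma delta T-like cells had 482, 381, 247 and 429 CPM in OXA_d10, OXA_d16, MC903_d9 and Untreated, and epidermal gamma delta T-like cells had 420 CPM in OXA_d10, 274 CPM in MC903_d9 and 343 CPM (324 to 363) in Untreated. NK or ILC1-like cells had 122 CPM in OXA_d10, 84.4 CPM in OXA_d16, 501 CPM (397 to 623) in MC903_d9 and 528 CPM (398 to 687) in Untreated, with 80% and 85.5% of the MC903_d9 and Untreated UMIs in 5 cells. Fibroblast-like cells had 15.2 to 23.2 CPM, and 15.7% to 42.0% of melanocyte-like and fibroblast-like cells had an Ikzf2 UMI, so a single UMI of this gene says little.

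Il2ra and Icos marked Treg-like cells too but were shared with other lymphocyte classes. In Treg-like cells Il2ra was at 783 CPM (720 to 851) in OXA_d10, 850 CPM (754 to 956) in OXA_d16, 1457 CPM (1268 to 1665) in MC903_d9 and 425 CPM (323 to 548) in Untreated, so each inflamed library was above Untreated. In MC903_d9, however, 92.1% of the 214 UMIs came from 5 of 15 cells. CD8 T-like cells had 140, 194, 278 and 67.1 CPM of Il2ra in OXA_d10, OXA_d16, MC903_d9 and Untreated, the last from 4 UMIs in 1 cell. C5 had 85.6, 243, 475 and 122 CPM, with 72.5% of the MC903_d9 UMIs in 5 of 68 cells. IL-17-type gamma delta T-like cells had 455 CPM (363 to 563) in OXA_d10, 237 CPM in OXA_d16, 213 CPM in MC903_d9 and 198 CPM in Untreated. ILC2-like cells had 577 CPM (392 to 820) in OXA_d10, 232 CPM (164 to 318) in MC903_d9 and 431 CPM (373 to 496) in Untreated. Epidermal gamma delta T-like cells (20 to 46.2 CPM) and NK or ILC1-like cells (19.2 to 181 CPM) had the lowest Il2ra levels of the named classes.

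Icos levels in Treg-like cells overlapped between all 4 libraries. Treg-like cells had 1179 CPM (1101 to 1261) in OXA_d10, 1283 CPM (1164 to 1411) in OXA_d16, 1116 CPM (952 to 1301) in MC903_d9 and 1015 CPM (854 to 1196) in Untreated. CD8 T-like cells had 355, 468, 607 and 504 CPM, C5 had 536, 716, 922 and 443 CPM, and IL-17-type gamma delta T-like cells had 612, 529, 747 and 427 CPM in OXA_d10, OXA_d16, MC903_d9 and Untreated. Treg-like cells were the highest of these 4 groups in each library. ILC2-like cells carried Icos at 373 CPM in OXA_d10, 769 CPM (641 to 915) in MC903_d9 and 513 CPM (449 to 584) in Untreated. Epidermal gamma delta T-like cells stood apart from the other T cells, with 0 Icos UMIs in the 19 cells of OXA_d10 and the 16 of MC903_d9 and 9 UMIs, or 2.65 CPM, in 605 Untreated cells. Unnamed cluster C11 had 24 Icos UMIs, or 55.2 CPM, in its 51 cells of MC903_d9, with 95.8% of them in 5 cells.

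**Figure D3:**
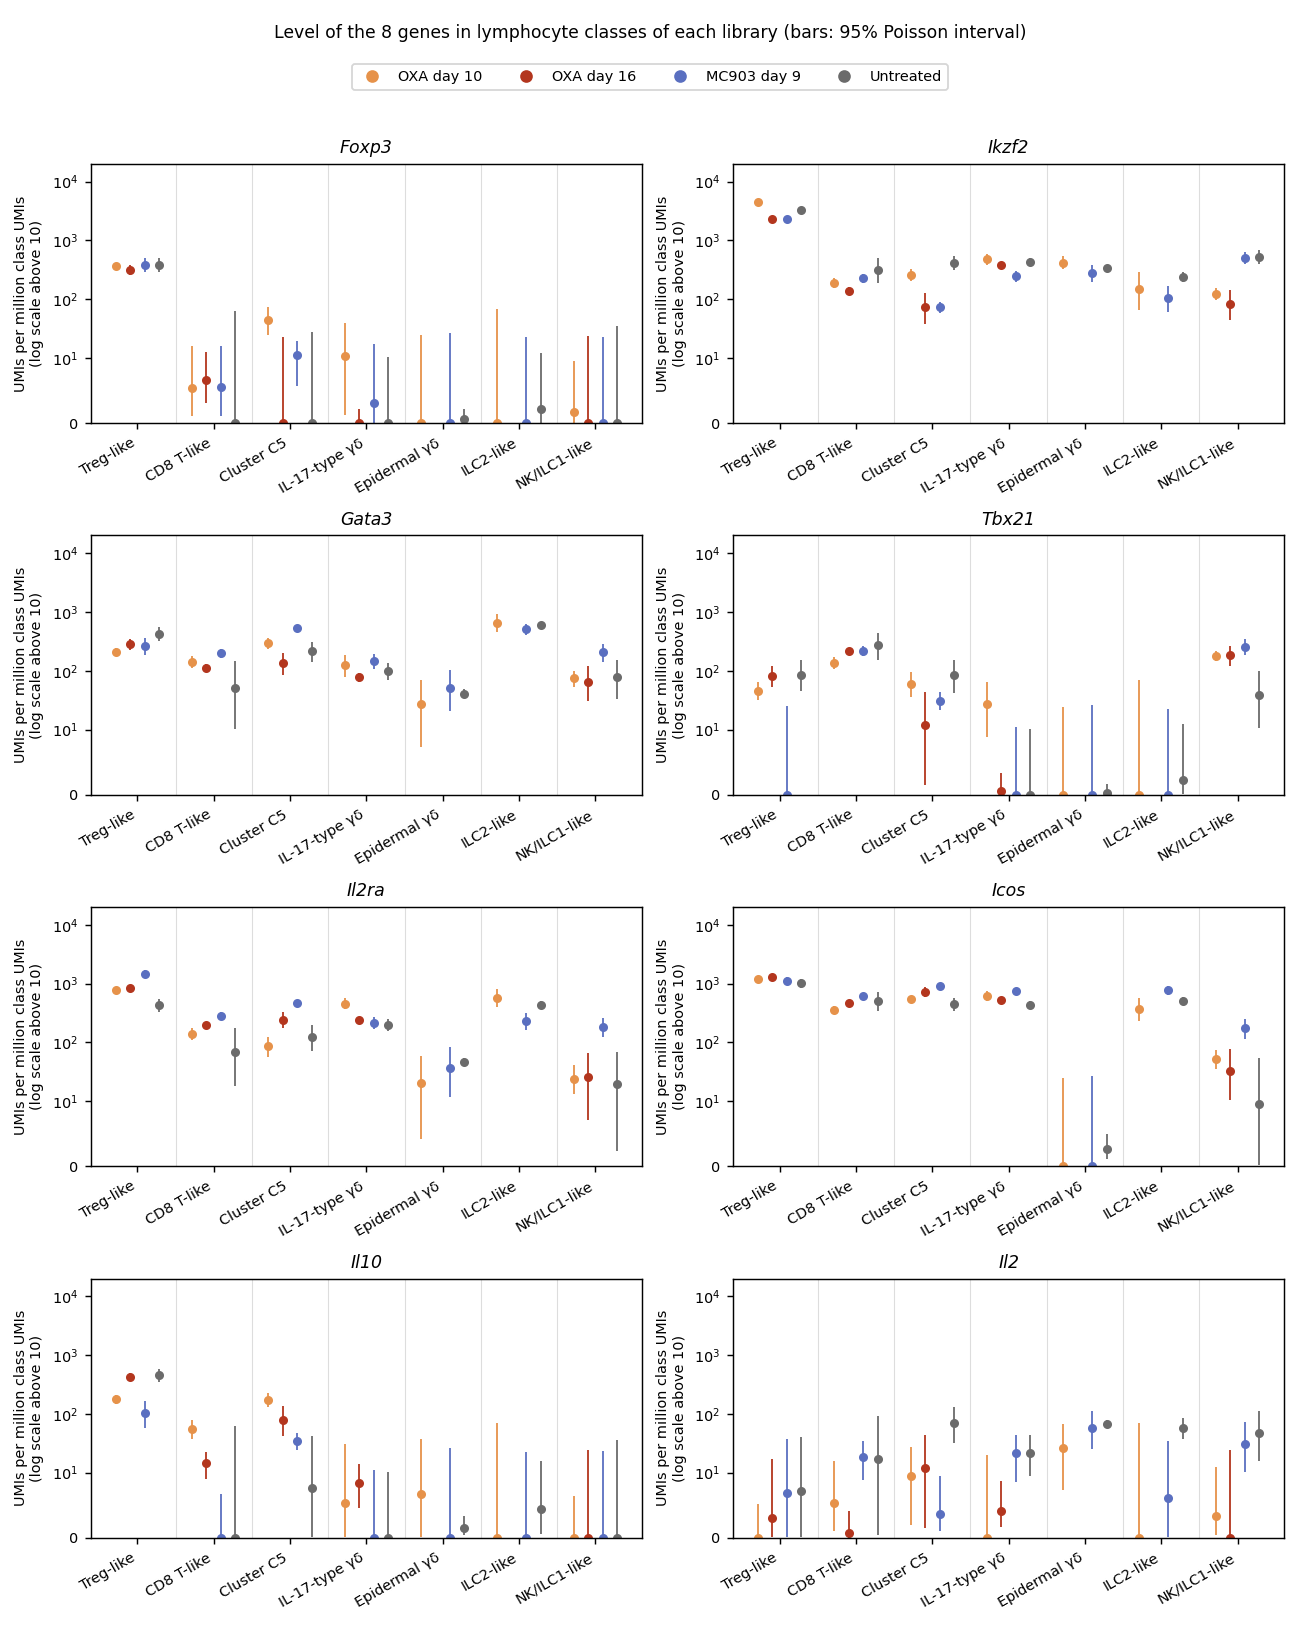
Points give the level of each gene in 7 lymphocyte classes of the 4 libraries, in CPM of the class total on an axis that is linear below 10 and logarithmic above, with 95% Poisson intervals. Classes of under 10 cells are not drawn (OXA_d16 had 0 epidermal gamma delta T-like and 4 ILC2-like cells). Foxp3 lies between 312 and 389 CPM in Treg-like cells of all 4 libraries, Icos is near 0 in epidermal gamma delta T-like cells, and Tbx21 is near 0 in ILC2-like cells.

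ILC2-like cells carried Gata3 almost without Tbx21, while NK or ILC1-like cells and alpha beta T-like cells carried both. ILC2-like cells had Gata3 at 652 CPM (454 to 907) in OXA_d10, 513 CPM (409 to 635) in MC903_d9 and 595 CPM (526 to 670) in Untreated, and 1 Tbx21 UMI in 104 cells of the 4 libraries. NK or ILC1-like cells had Tbx21 at 179 CPM (146 to 217) in OXA_d10, 182 CPM (121 to 263) in OXA_d16, 257 CPM (184 to 348) in MC903_d9 and 38.4 CPM (10.5 to 98.3, 4 UMIs) in Untreated. They carried Gata3 at 74.1, 64.9, 207 and 76.8 CPM in OXA_d10, OXA_d16, MC903_d9 and Untreated. IL-17-type gamma delta T-like cells had Gata3 at 125, 78.0, 146 and 99.1 CPM and Tbx21 in 5, 1, 0 and 0 UMIs in those libraries, and epidermal gamma delta T-like cells had 0, 0 and 1 Tbx21 UMIs in OXA_d10, MC903_d9 and Untreated.

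Among alpha beta T-like cells, MC903_d9 stood out for Gata3 and OXA_d16 for Tbx21. Gata3 was at 166 CPM (150 to 183) in OXA_d10, 142 CPM (126 to 158) in OXA_d16, 406 CPM (378 to 435) in MC903_d9 and 247 CPM (199 to 302) in Untreated. Tbx21 was at 74.7 CPM (63.9 to 86.6) in OXA_d10, 179 CPM (162 to 198) in OXA_d16, 83.1 CPM (71.0 to 96.8) in MC903_d9 and 106 CPM (75.7 to 144) in Untreated. The MC903_d9 interval for Gata3 lies above the other libraries' intervals, and so does the OXA_d16 interval for Tbx21. Thinned to 1000 UMIs a cell, 22.0%, 15.4%, 30.8% and 18.7% of cells had Gata3 in OXA_d10, OXA_d16, MC903_d9 and Untreated, against 53.2%, 56.7%, 80.8% and 51.9% before thinning.

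The Gata3 level of MC903_d9 came largely from C5. In C5, Gata3 was at 292 CPM (235 to 358, 92 UMIs) in OXA_d10, 134 CPM (83.7 to 202, 22 UMIs) in OXA_d16, 542 CPM (499 to 588, 584 UMIs) in MC903_d9 and 214 CPM (142 to 309, 28 UMIs) in Untreated. The share of C5 cells with a Gata3 UMI was 54.5%, 45%, 92.6% and 55.6%, at median depths of 6550, 6688, 13789 and 5332 UMIs, and 20.9%, 15.8%, 41.8% and 14.8% after thinning. The MC903_d9 cells of C5 were thus the highest before and after thinning and also the deepest. CD8 T-like cells held Tbx21 at 138 CPM (109 to 173) in OXA_d10, 218 CPM (194 to 244) in OXA_d16, 218 CPM (180 to 261) in MC903_d9 and 269 CPM (154 to 436, 16 UMIs) in Untreated. Within CD8 T-like cells, OXA_d16 and MC903_d9 did not differ in Tbx21 beyond counting error, although OXA_d16 was higher over the whole class. Treg-like cells carried Gata3 as well, at 210, 281, 259 and 425 CPM in OXA_d10, OXA_d16, MC903_d9 and Untreated, and Tbx21 at 46.0, 81.7, 0 and 86.3 CPM.

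Many single alpha beta T-like cells carried UMIs of both factors. Both were found in 16.5% of cells in OXA_d10, 29.9% (23.5 to 37.1) in OXA_d16, 29.5% (22.2 to 37.6) in MC903_d9 and 10.4% (4.59 to 19.4) in Untreated, and neither in 32.9%, 23.5%, 12.3% and 40.3%. Median depth was 5816, 10546, 11903 and 4251 UMIs a cell in OXA_d10, OXA_d16, MC903_d9 and Untreated, so the libraries with more cells holding both were also the deeper ones, and the part of depth in these shares was not tested. In C5 of MC903_d9, 72.1% of cells had Gata3 without Tbx21 and 20.6% had both.

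Il10 in lymphocytes was an alpha beta T cell gene and came from few cells. Treg-like cells had 177 CPM (148 to 211, 127 UMIs) in OXA_d10, 427 CPM (359 to 503, 141 UMIs) in OXA_d16, 102 CPM (57.1 to 168, 15 UMIs) in MC903_d9 and 460 CPM (355 to 588, 64 UMIs) in Untreated. The share of Treg-like cells with an Il10 UMI was 24.3%, 51.6% (33.1 to 69.8), 46.7% and 18.8% (7.21 to 36.4), MC903_d9 having the lower level but the higher share beside Untreated, and 10.6%, 26.7%, 6.67% and 12.9% after thinning. The 5 richest cells held 36.2% of the UMIs in OXA_d10, 64.5% in OXA_d16, 86.7% in MC903_d9 and 98.4% in Untreated, so the Untreated level rests on 5 of 32 cells. Background shares in melanocyte-like and fibroblast-like cells were 0 to 7.69%. C5 had 54, 13, 37 and 1 Il10 UMIs in OXA_d10, OXA_d16, MC903_d9 and Untreated. NK or ILC1-like cells had 0 in each library, ILC2-like cells had 2 in Untreated and 0 in the others, and IL-17-type gamma delta T-like cells had 14 in OXA_d16 and 1, 0 and 0 in OXA_d10, MC903_d9 and Untreated.

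Il2 was sparse in alpha beta T-like cells, and most of its lymphocyte UMIs came from epidermal gamma delta T-like cells of untreated skin. These had 26.7 CPM (7.27 to 68.3, 4 UMIs) in OXA_d10, 57.7 CPM (24.9 to 114, 8 UMIs) in MC903_d9 and 68.2 CPM (59.7 to 77.6, 232 UMIs) in Untreated, and the 3 intervals overlap. An Il2 UMI was found in 29.3% (25.7 to 33.1) of 605 Untreated cells at a median depth of 5480 UMIs, with no more than 5 in a cell, against 8.25% of fibroblast-like and 7.96% of keratinocyte-like cells of the same library. The fibroblast-like cells there were deeper, at a median of 11665 UMIs. Thinned to 1000 UMIs, with 14 cells left out, 6.94% of the epidermal cells had an Il2 UMI. Untreated ILC2-like cells had 57.5 CPM (37.6 to 84.3) with a UMI in 27.5% of 69 cells, and Untreated C5 had 68.7 CPM from 9 UMIs. Treg-like cells had 0, 1, 1 and 1 Il2 UMIs in OXA_d10, OXA_d16, MC903_d9 and Untreated. Alpha beta T-like cells as a whole had 10, 4, 16 and 11, or 4.32, 1.87, 8.01 and 29.2 CPM, while fibroblast-like cells had 2.65, 2.30, 2.60 and 7.28 CPM, so the OXA_d10 and OXA_d16 levels are near background.

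The libraries were then compared in pairs, taking a gene as measured with at least 30 UMIs in the pair together and as apart at 2-fold or more, with no test. Between alpha beta T-like cells of OXA_d10 and Untreated, 0 of 7 measured members were apart, where 12.7% of 8022 genes were. Between OXA_d16 and Untreated, 2 of 7 were, Foxp3 with a log2 ratio of -1.43 (-1.91 to -0.94) and Ikzf2 with -1.57 (-1.72 to -1.42), where 19.1% of genes were. Between MC903_d9 and Untreated, 4 of 7 were, where 16.4% of genes were: Il2ra at 1.07 (0.75 to 1.41), Foxp3 at -1.60 (-2.10 to -1.09), Ikzf2 at -2.15 (-2.32 to -1.98) and Il10 at -2.40 (-2.92 to -1.89). Of the Untreated Il10 UMIs in this class, 96.9% lay in 5 cells, and without the 5 richest cells of each library for the gene Il2ra was at 0.50, within 2-fold. With cells chosen by marker gates in place of clusters, Foxp3 was at -0.78 and Ikzf2 at -0.63 in OXA_d16 over Untreated and Foxp3 at -0.73 in MC903_d9 over Untreated, all within 2-fold. The median log2 ratio over all genes was 0.00055, -0.32 and -0.088 in these 3 comparisons, which share the Untreated cells.

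Between OXA_d16 and OXA_d10, 3 of 7 members were apart in alpha beta T-like cells, where 16.6% of genes were and the median gene stood at -0.37. Tbx21 had a log2 ratio of 1.26 (1.00 to 1.53), Foxp3 -1.43 (-1.75 to -1.12) and Ikzf2 -1.88 (-1.98 to -1.78). Between MC903_d9 and OXA_d16, 3 of 7 were, where 12.3% of genes were and the median gene stood at 0.26: Gata3 at 1.52 (1.33 to 1.71), Tbx21 at -1.11 (-1.38 to -0.84) and Il10 at -1.81 (-2.22 to -1.41). With marker gates Tbx21 was at -0.83. Over the class, MC903_d9 was thus higher in Gata3 and lower in Tbx21 than OXA_d16, with C5 at 46.6% of MC903_d9 and 10.7% of OXA_d16 and CD8 T-like cells at 37.0% and 66.3%.

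Within CD8 T-like and IL-17-type gamma delta T-like cells, 1 of 15 member comparisons reached 2-fold. Between CD8 T-like cells of OXA_d16 and OXA_d10, 1 of 6 measured members was apart, Il10 at -1.91 (20 UMIs in 3 cells against 31 in 2), where 11.0% of genes were. Between CD8 T-like cells of MC903_d9 and OXA_d16, 0 of 5 were, where 11.9% of genes were, and Gata3 was at 0.81 (0.44 to 1.18). Between IL-17-type gamma delta T-like cells of OXA_d16 and Untreated, 0 of 4 were, where 19.4% of genes were. In that class 153 of the 159 OXA_d16 cells lay in a cluster led by Il17a and Il17f, and 59 of the 62 Untreated cells in another led by Fstl4, Zbtb16 and Cd163l1.

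In Treg-like cells, where classes of 20 cells or more were admitted, Foxp3 was within 2-fold in each of the 3 pairs compared. Between OXA_d10 and Untreated, 2 of 7 members were apart, Gata3 at -1.01 (-1.46 to -0.55) and Il10 at -1.38 (-1.82 to -0.92), where 19.6% of genes were. Without the 5 richest cells of each library for a gene, Il10 turned to 3.97 and Gata3 was at -0.11. Between OXA_d16 and Untreated, 1 of 7 was, Il2ra at 1.00 (0.59 to 1.43), on the 2-fold limit itself, where 17.5% of genes were. Between OXA_d16 and OXA_d10, 1 of 7 was, Il10 at 1.27 (0.91 to 1.63), where 24.7% of genes were. Without the 5 richest cells of each library for a gene, Il10 was at 0.42 and Ikzf2 at -1.62. Ikzf2 was just inside the limit there at -0.98 (-1.10 to -0.87), with the median gene at -0.38.

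Between cluster C5 of MC903_d9 and of Untreated, all 6 measured members were apart by the 2-fold rule, where 21.4% of genes were. The interval of Il10 covers both directions. Il2ra was at 1.96 (1.25 to 2.78), Gata3 at 1.34 (0.80 to 1.95), Icos at 1.06 (0.68 to 1.47) and Il10, 37 UMIs against 1, at 2.17 (-0.40 to 7.51). Tbx21 was at -1.45 (-2.47 to -0.32), its 11 Untreated UMIs lying in 4 of 27 cells. Ikzf2 was at -2.51 (-3.03 to -1.98), with 98.1% of the Untreated Ikzf2 UMIs in 5 of 27 cells. Without the 5 richest cells of each library for a gene, only 3 of the 6 could still be measured. All 3 were apart, Gata3 at 2.00, Il2ra at 2.52 and Icos at 1.59, while Il10, Tbx21 and Ikzf2 had too few UMIs left. Between C5 of MC903_d9 and of OXA_d16, 3 of 6 were, where 26.8% of genes were: Gata3 at 2.02 (1.41 to 2.71), Tbx21, 33 UMIs against 2, at 1.34 (-0.63 to 4.44), and Il10 at -1.20 (-2.14 to -0.16). In the other C5 pairs, 1 of 6 was apart between OXA_d10 and Untreated (Il10, 54 UMIs, 98.1% of them in 5 of 44 cells, against 1, at 4.49, 1.95 to 9.82), where 12.6% of genes were. Between OXA_d16 and Untreated, 1 of 4 was (Ikzf2, -2.50), where 16.9% of genes were. Between OXA_d16 and OXA_d10, 4 of 5 were, where 18.4% of genes were: Il2ra at 1.5 (0.76 to 2.26), Ikzf2 at -1.84 (-2.85 to -0.95), Gata3 at -1.13 (-1.87 to -0.44) and Il10 at -1.12 (-2.12 to -0.22). In OXA_d16, however, Il2ra, Ikzf2 and Il10 had UMIs in only 4, 3 and 2 of 20 C5 cells. With median-of-ratios scaling Gata3 was at -0.83 and Il10 at -0.82, both within 2-fold.

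**Figure D4:**
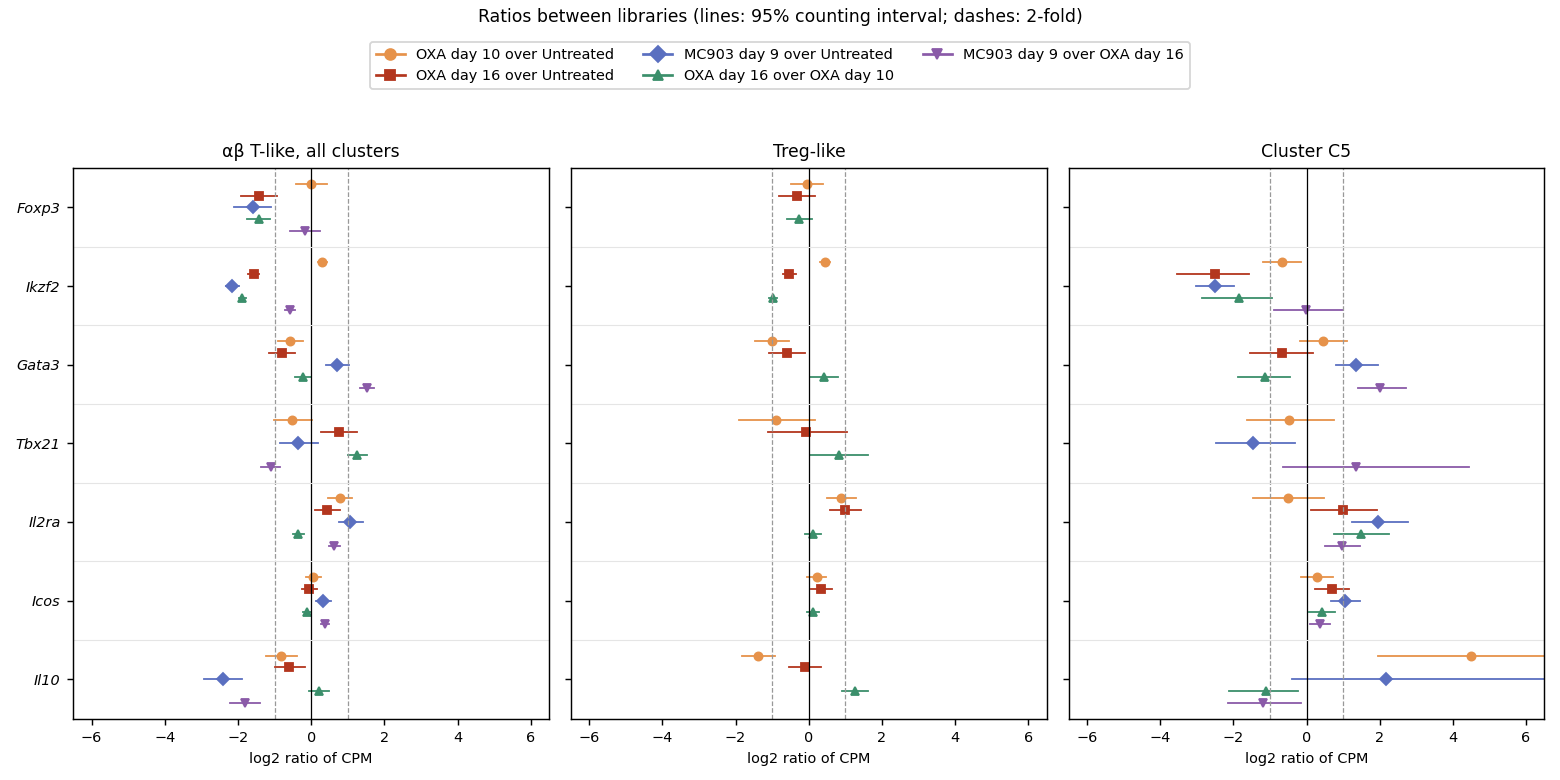
Points give log2 ratios of CPM between 2 libraries for 7 genes in alpha beta T-like cells, Treg-like cells and cluster C5, with 95% counting intervals (2 intervals of Il10 in C5 run past the axis) and dashed lines at 2-fold. Il2 had too few UMIs for a ratio in any pair. Foxp3 and Ikzf2 lie beyond the lower 2-fold line in OXA_d16 and MC903_d9 over Untreated for the whole class, while Foxp3 lies within 2-fold in Treg-like cells.

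Over the 16 comparisons Icos was apart in 1 and Il2ra in 4, each time with the first-named library higher, and Ikzf2 in 6 with the first-named library lower each time. Foxp3, measured in 8, was lower in 3. Gata3 was higher in 3 and lower in 2, and Tbx21, measured in 13, was higher in 2 and lower in 2. Il10, also measured in 13, was higher in 3 and lower in 6. Over all genes, 11.0% to 26.8% were apart in each comparison, and a member's count near that share gives no result about the gene. The comparisons share libraries and cells, so these counts are not independent.

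The wider programmes around these genes gave the following counts in alpha beta T-like cells. Over all genes, 665 were higher and 352 lower, or 12.7% together, in OXA_d10 over Untreated, 364 and 978 (19.1%) in OXA_d16 over Untreated, 575 and 637 (16.4%) in MC903_d9 over Untreated, 187 and 1287 (16.6%) in OXA_d16 over OXA_d10, and 782 and 262 (12.3%) in MC903_d9 over OXA_d16. A list whose share lies near these gives no result about the list. Of 17 measured genes of the type 1 programme that goes with Tbx21, 10 were higher and 0 lower in OXA_d16 than in Untreated, with a median log2 ratio of 1.70, against -0.32 over all genes. The highest were the chemokine gene Xcl1 at 3.21, the NK receptor gene Klrd1 at 2.95, the transcription factor gene Zeb2 at 2.73 and the cytotoxic protease gene Gzmb at 2.35. Against OXA_d10, OXA_d16 had 6 higher and 0 lower, with the chemokine gene Ccl5 at 2.37 and Ifng, the type 1 cytokine gene, at 1.70. MC903_d9 had 0 higher and 8 lower than OXA_d16, with Ccl5 at -3.10, Gzmb at -2.05 and Ifng at -1.71. Between OXA_d10 and Untreated the counts were 5 higher and 1 lower, and between MC903_d9 and Untreated 5 and 2. Within CD8 T-like cells alone, which were 66.3% of the class in OXA_d16, 37.0% in MC903_d9 and 27.2% in OXA_d10, the same list had 2 higher and 0 lower of 17 in OXA_d16 over OXA_d10, with a median of 0.096, and 1 higher and 4 lower of 17 in MC903_d9 over OXA_d16, with a median of -0.37.

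In the type 2 programme that goes with Gata3, MC903_d9 had 4 higher and 1 lower of 12 than OXA_d16: Il13 at 2.13, Il4 at 1.76 and the chemokine receptor gene Ccr4 at 1.56 among those higher, and Areg, an epidermal growth factor receptor ligand, lower at -1.37. Against Untreated, 2 were higher and 3 lower of 12 in OXA_d10, 3 and 3 of 11 in OXA_d16 and 2 and 1 of 12 in MC903_d9. OXA_d16 had 1 higher and 2 lower of 12 than OXA_d10. Summed levels of the type 2 list were 1977, 1759, 1961 and 2439 CPM in OXA_d10, OXA_d16, MC903_d9 and Untreated, so the list as a whole was highest in Untreated. Il4 had 181 UMIs in MC903_d9 and 0 in Untreated, at least 11.4-fold higher against a floor of 3 UMIs, and Il13 had 45 and 0, at least 2.83-fold higher. Regulatory T genes other than the members were mostly within 2-fold: 5 higher and 2 lower of 22 in OXA_d10 over Untreated, 1 and 3 of 20 in OXA_d16 over Untreated, 1 and 4 of 20 in MC903_d9 over Untreated, 0 and 4 of 22 in OXA_d16 over OXA_d10, and 0 and 3 of 21 in MC903_d9 over OXA_d16. Within C5 the same list had 7 higher and 1 lower of 17 in MC903_d9 over OXA_d16, where 26.8% of genes were apart, and 5 and 2 of 15 in MC903_d9 over Untreated, where 21.4% were.

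In the pathway of the IL-2 receptor, counts were near the share over all genes in each library set against Untreated. MC903_d9 had 3 higher and 0 lower of 16 than Untreated, the survival gene Bcl2 at 1.66, the IL-15 receptor gene Il15ra at 1.48 and the signalling gene Stat5a at 1.30. OXA_d10 had 2 higher and 0 lower of 14, Il2rb, the receptor's beta chain, at 1.19 and Bcl2 at 1.06. OXA_d16 had Il2rb higher at 1.41 and Socs2 (-1.68) and Il7r (-1.12) lower. In the ICOS and CD28 family, the inhibitory receptor gene Pdcd1 was at 1.66, 2.74 and 2.00 in OXA_d10, OXA_d16 and MC903_d9 over Untreated, and Cd40lg, a helper T cell ligand, at -2.10 in OXA_d10 and -2.12 in OXA_d16. The family's counts higher and lower were 1 and 1 of 10 in OXA_d10, 1 and 3 of 10 in OXA_d16 and 1 and 1 of 10 in MC903_d9 over Untreated. The IL-10 pathway had 2 higher and 0 lower of 10 in OXA_d10, 2 and 0 of 9 in OXA_d16 and 0 and 1 of 9 in MC903_d9 over Untreated, with Stat3, which relays the IL-10 signal, at 1.70 in OXA_d16.

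Type 3 genes, of IL-17-making cells, gave counts higher and lower of 0 and 2 of 5 measured in OXA_d10 over Untreated, 1 and 2 of 7 in OXA_d16 over Untreated, 1 and 2 of 6 in MC903_d9 over Untreated, 3 and 1 of 7 in OXA_d16 over OXA_d10, and 1 and 1 of 8 in MC903_d9 over OXA_d16. Il17f, an IL-17 family cytokine gene, had 145 UMIs in MC903_d9 and 0 in Untreated, at least 9.13-fold higher against the floor of 3 UMIs. Activation and NFAT genes gave 2 and 4 of 13, 1 and 2 of 12, 1 and 1 of 13, 1 and 1 of 13, and 2 and 0 of 13 in the same order of comparisons, with Tnf, an inflammatory cytokine gene, at -2.72, -2.62 and -2.17 in OXA_d10, OXA_d16 and MC903_d9 over Untreated. Naive and recirculating T genes gave 3 and 2, 1 and 3, 3 and 1, 1 and 2, and 3 and 0 of 8, with Satb1, a chromatin organiser, at 2.68, 3.41 and 3.89 over Untreated. Ikaros and GATA family genes other than the members gave 0 and 1, 0 and 2, 0 and 1, 0 and 1, and 0 and 0 of 7, with Tox at -2.09 in OXA_d16 and -1.53 in MC903_d9 over Untreated. Cell cycle genes gave 1 and 0 of 10, 0 and 1 of 9, 0 and 0 of 9, 0 and 4 of 10, and 0 and 0 of 10.

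Genes of tissue dissociation and RNA of other cell types moved with the same comparisons, and their part in the results was not tested. Of 12 genes induced by tissue dissociation, 9 were lower in OXA_d10, 7 in OXA_d16 and 5 in MC903_d9 than in Untreated alpha beta T-like cells, with summed levels of 2337, 2630, 3709 and 5429 CPM. Markers of neutrophils summed to 157, 502 and 46.1 CPM in alpha beta T-like cells of OXA_d10, OXA_d16 and MC903_d9, with 1, 1 and 2 of the 6 markers at 0, and to 0 CPM in Untreated, with all 6 at 0. In neutrophil-like cells of the same libraries they summed to 134576, 129768, 113678 and 43480 CPM. The 10 markers of macrophages or monocytes summed to 457, 404, 152 and 321 CPM in alpha beta T-like cells of OXA_d10, OXA_d16, MC903_d9 and Untreated, with 0, 0, 2 and 4 of them at 0, and to 8901, 9489, 9967 and 10573 CPM in macrophage or monocyte-like cells. In Treg-like cells they summed to 726, 663, 293 and 511 CPM.

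In each library, alpha beta T-like cells with a Foxp3 UMI held Ikzf2, Il10 and Il2ra more often, and Tbx21 less often, than cells without one. These shares are a description of cells, which are not replicates. Ikzf2 was found in 98.3% of 116 cells with Foxp3 and 52.5% of those without in OXA_d10, in 89.3% of 28 and 30.2% in OXA_d16, in 76.2% of 21 and 28% in MC903_d9, and in 90.9% of 22 and 40% in Untreated. Il10 was found in 26.7% and 9.5%, 57.1% and 4.40%, 38.1% and 8%, and 22.7% and 3.64% in the same order. Il2ra was found in 87.1% and 46.5%, 92.9% and 49.7%, 76.2% and 51.2%, and 72.7% and 38.2%. Tbx21 was less frequent with Foxp3 in each library, 21.6% and 35.5%, 35.7% and 52.2%, 9.52% and 40.8%, and 9.09% and 21.8%. Gata3 showed no single direction, 56.0% and 51.5%, 75% and 53.5%, 71.4% and 82.4%, and 68.2% and 45.5%.

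Cells with a Foxp3 UMI had lower median depth than the others in each library: 5588 and 5859 UMIs in OXA_d10, 8824 and 10931 in OXA_d16, 10028 and 12046 in MC903_d9, and 3976 and 4617 in Untreated. Pooled over libraries, which mix differently in the 187 cells with Foxp3 and the 539 others, thinning to 2000 UMIs a cell moved 12 of 14 shares beyond their counting interval. After thinning, Ikzf2, Il2ra, Icos and Il10 were still found more often, and Tbx21 less often, in cells with Foxp3. Among genes outside the set, in the pooled cells without thinning, Cd4 was found in 66.8% of cells with Foxp3 and 35.1% of the others, Cd8a in 1.60% and 39.7%, Ifng in 3.21% and 27.3%, Il4 in 1.07% and 8.53%, and the inhibitory receptor gene Ctla4 in 94.1% and 67.5%. Il2 was found in 3.21% and 5.57%, both within the background range of 0 to 8.25%.

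**Figure D5:**
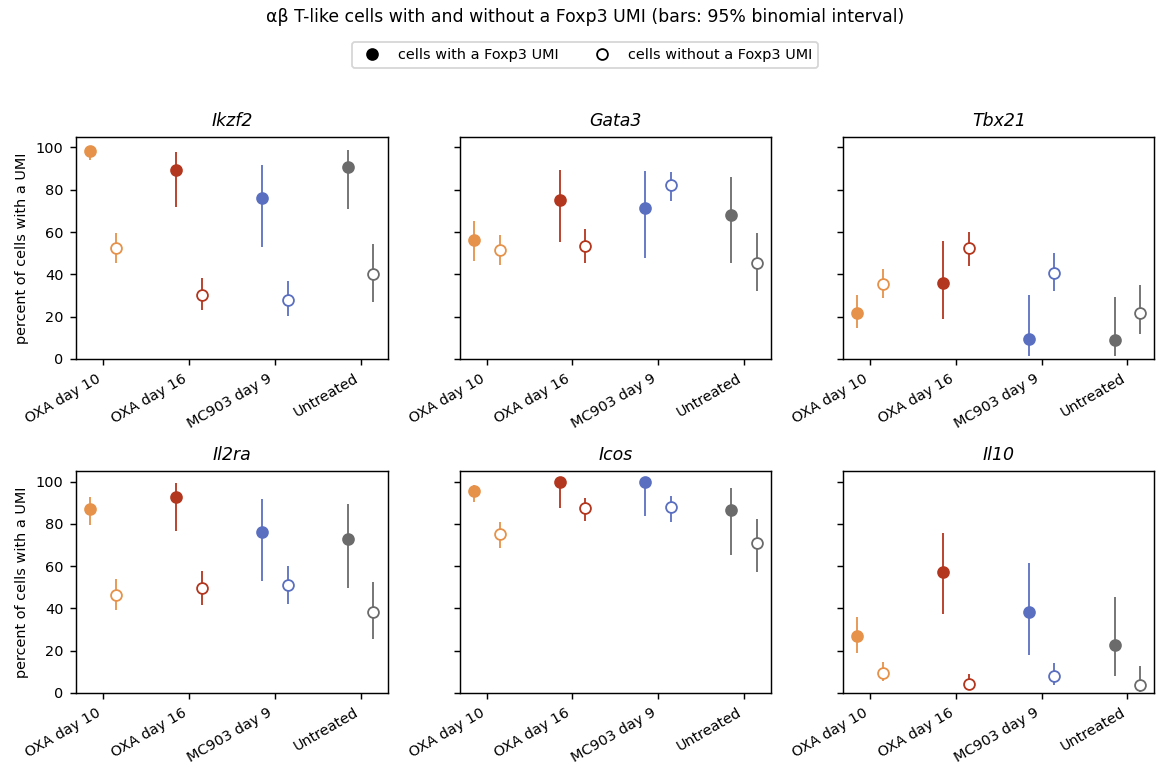
Points give the percent of alpha beta T-like cells with a UMI of each of 6 genes, with 95% binomial intervals, in cells with a Foxp3 UMI (filled) and without one (open), by library. Filled points lie above open ones in all 4 libraries for Ikzf2, Il2ra, Icos and Il10 and below them for Tbx21.

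Across 61 profiles, each a cell class or lymphocyte cluster of 1 library with at least 50 cells, 3 genes of 16733 were named for each member by Pearson's r of log levels. This is a description: the profiles share libraries and differ in depth, and no test applies. Lymphocytes gave 12 of the profiles, and Treg-like cells gave 1, from the 144 cells of OXA_d10. Tbx21 was most like Gm2682 (0.92), Ubash3a (0.90) and Ifng (0.90), and Icos most like Ikzf3 (0.92), Pdcd1 (0.91) and Sh2d2a (0.90). Il2ra was most like Icos itself (0.88), followed by Ikzf3 (0.87) and Cd40lg (0.87). Gata3 was most like Trbc2 (0.85), Bcl11b (0.84) and the skin-expressed Hook1 (0.80), and Ikzf2 most like Gm28112, which overlaps it (0.82), Cog5 (0.82) and Kcnq5 (0.81). Foxp3 was most like Tigit (0.69), which is in the marker list that named the Treg-like cells, Sv2c (0.68) and Gpr55 (0.66). Il10 reached 0.65 with Rbpj, 0.63 with Tlr1 and 0.62 with Rilpl2, and Il2 no more than 0.65, with D030056L22Rik, Exoc3 and A430088P11Rik.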

How the data were processed

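Single-cell RNA was measured in 4 libraries. The authors deposited whole-number UMI counts per gene and cell barcode, not normalized. Per the file headers they were made with Cell Ranger 7.2.0 (OXA_d10, Untreated) and 8.0.0 (OXA_d16, MC903_d9), and per the submitters' processing notes with Cell Ranger 8.0 and mm10. The annotation and the treatment of intronic reads were not given in the sources used here. The version is therefore shared by pairs of libraries. Foxp3 and Ikzf2 over the alpha beta T-like class and Ikzf2 in Treg-like cells were all lower in OXA_d16 and MC903_d9 than in OXA_d10 and Untreated. Class Ikzf2 was at 483 and 324 CPM against 1783 and 1437 CPM. The Treg-like share of the class was lower (16.6% and 10.3% against 45.6% and 41.6%) and the CD8 T-like share higher (66.3% and 37.0% against 27.2% and 18.2%). Median depth of the class was higher too. Each split is the split by version, so version and treatment cannot be told apart in these results. The part of the version in any difference was not tested.

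Barcodes with under 300 genes or over 15% mitochondrial UMIs were dropped (1092), as were the highest Scrublet doublet scores at 0.8% per 1000 barcodes (1606). Cells were clustered with scanpy 1.11.5 and leidenalg 0.10.2 in 3 rounds (2000 variable genes without the 8 members, 30 components, 15 neighbours, resolution 1) and named from marker lists, with naming thresholds set after seeing the data. CPM, ratios and intervals (scipy 1.17.1) were computed from UMIs summed per class and library. A ratio needed 30 UMIs in the pair and 50 cells in each class, or 20 for Treg-like cells and cluster C5, which was chosen after seeing the data. Intervals of 95% cover counting error only. With 1 library a group no test was possible. Named list genes were at most the 4 with the largest absolute log2 ratio per list and comparison. The self-tests used simulated counts. The members and the 13 gene lists were chosen with earlier results of these data known. Alternatives covered clustering, cell filters, doublets, marker gates, variable genes, thinning, scaling, free RNA and low counts.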

Additional observations from a re-analysis of the deposited data

How the results depend on the processing

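No paired analysis was possible because each group had 1 library. Of 888 log2 ratios recomputed, 759 kept their value within the counting interval, 128 moved and 1 reversed. The reversal was Il10 in Treg-like cells of OXA_d10 over Untreated, at 3.97 without the 5 richest cells for the gene. Only ratios apart at 2-fold could count as reversed, so other changes of sign are not in that 1. Without the 5 richest cells, Il10 in alpha beta T-like cells went from -0.81 to 3.46 in OXA_d10 over Untreated. In OXA_d16 over Untreated, Il10 went from -0.60 to 3.01 in alpha beta T-like cells and from -0.11 to 4.39 in Treg-like cells. Tbx21 went from -0.51 to 0.80 in alpha beta T-like cells of OXA_d10 over Untreated. Leaving out those 5 cells changed the number of members apart to 2 (alpha beta, OXA_d10 over Untreated), 4 (OXA_d16 over Untreated) and 2 (MC903_d9 over Untreated), to 2 in Treg-like cells of OXA_d16 over Untreated, to 0 in CD8 T-like cells of OXA_d16 over OXA_d10, and in C5 to 0, 0, 3 and 1 in OXA_d10, OXA_d16 and MC903_d9 over Untreated and OXA_d16 over OXA_d10. In alpha beta T-like cells of OXA_d10 over Untreated the count was 1 at resolution 2, with marker gates, with at least 10 UMIs and with cluster C8 added (chosen after seeing the data). With at least 10 UMIs it was 2 in CD8 T-like cells of MC903_d9 over OXA_d16, 1 in IL-17-type cells, and 2 and 4 in C5 of OXA_d10 and OXA_d16 over Untreated. With a 10% mitochondrial limit, and with the members among the variable genes, it was 0 in CD8 T-like cells of OXA_d16 over OXA_d10, 1 in Treg-like cells of OXA_d10 over Untreated and 0 in those of OXA_d16 over Untreated, the last also without doublet removal. In those CD8 T-like cells Il10 was not measured under either setting. Median-of-ratios scaling and centring each gave 2 in Treg-like cells of OXA_d16 over OXA_d10, 2 in C5 of OXA_d16 over Untreated and 2 in C5 of OXA_d16 over OXA_d10. No share over all genes was kept for the alternatives, so these counts show only how the calls shift. The share of Foxp3 UMIs in Treg-like cells, 72.6% in OXA_d10, 78.6% in OXA_d16 and 46.3% in MC903_d9, was 62.2% and 63.4% in OXA_d10 and OXA_d16 without doublet removal and 35.8% in MC903_d9 with the 10% limit. With marker gates, in alpha beta T-like cells, Foxp3 (-0.78) and Ikzf2 (-0.63) in OXA_d16 over Untreated, Foxp3 (-0.73) in MC903_d9 over Untreated and Tbx21 (-0.83) in MC903_d9 over OXA_d16 were within 2-fold. Without the 5 richest cells, so were Il2ra (0.50) in MC903_d9 over Untreated and, in Treg-like cells of OXA_d16 over OXA_d10, Il10 (0.42), where Ikzf2 (-1.62) was apart instead. Thinning to 2000 UMIs moved 12 of 14 co-detection shares. The cause was not tested for any of these, apart from fewer cells or genes by construction. C5 could not be matched between clusterings, so only scaling, low-count, free-RNA, centring and 5-cell alternatives were run for it. Small classes limit precision: 4 UMIs gave NK or ILC1-like Tbx21 in Untreated an interval of 10.5 to 98.3 CPM.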
